A study of Mus musculus with 57 samples.

Results

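The 6 targets described here are the pancreatic elastases Cela1, Cela2a and Cela3b and the pancreatic chymotrypsins Ctrb1, Ctrc and Ctrl. They were chosen by name from the 9780 targets of the deposited GeoMx Whole Transcriptome Atlas table, and all 6 were present in it. GeoMx counts barcodes released by light from probes bound to RNA in a chosen square of a tissue section. The tissue came from C57BL/6 mice aged 8 to 9 weeks, either control or given caerulein by intraperitoneal injection, hourly for 8 hours on each of 2 days in a row. Caerulein is an analogue of cholecystokinin that overstimulates acinar cells and causes acute pancreatitis. Control pancreas gave 7 regions. Treated pancreas at 3, 12, 24, 48 and 72 hours gave 3, 6, 6, 5 and 4 regions, and at 5, 7, 14 and 30 days it gave 6, 6, 7 and 7. The labels do not say from which injection these times are counted. Sections of 5 µm were cut from 2 tissue arrays of 12 cores, each array holding every time point, and each region was a square of 650 µm. No label ties a region to an animal, so regions of a time point on an array were added for the edgeR tests. Their p-values reflect the spread between such sums, which may be technical, and array and animal cannot be told apart.

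Acinar cells make elastases and chymotrypsins as inactive proenzymes, store them in zymogen granules and release them into the duct, and trypsin activates them in the gut. Elastases cut proteins after small side chains, and chymotrypsins cut after large aromatic or aliphatic ones. In pancreatitis these proenzymes can be activated inside the gland, and chymotrypsins can also degrade trypsinogen. Their genes are switched on by the acinar transcription factor PTF1, which reads an E-box together with a second motif nearby, and by the nuclear receptor NR5A2.

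Cela1 lies on chromosome 15 (GRCm38.p6, 100674422 to 100687920). Cela2a (141814954 to 141826005) and Ctrc (141838239 to 141846287) are neighbours on chromosome 4, with 12233 bases between them. Cela3b (137421008 to 137430520) lies on the same chromosome, 11216 bases from its paralogue Cela3a. Ctrl (105931994 to 105933862) and Ctrb1 (111686510 to 111691010) are both on chromosome 8. Each target was read by 1 probe, and its 35 bases lie inside the gene for Cela1, Cela2a, Ctrb1, Ctrc and Ctrl. For Cela3b the probe is listed as a span of 1229 bases inside the gene. The RefSeq table annotates mouse Ctrc as a transcribed pseudogene, and the C57BL/6 strain is known to carry a frameshift in it, so its counts here are of a transcript that makes no working protease. Because probes differ in how well they bind, levels were compared between groups for a target and not between targets.

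Of the 6 transcripts 5 moved together while Ctrb1 did not, and whether promoter motifs bear on this was not tested. RefSeq sequence (GRCm38.p6) was found for 5 of the 6 members, all but Ctrc. The 250 bases before the start of Cela2a, the elastase with the deepest fall, of Ctrb1, the exception, and of Cela3b and its paralogue Cela3a are given below, 5′ to 3′ on the minus strand, with the PTF1 half-motifs CACCTG and TTTCCCA in capitals on either strand.
Cela2a, chr4:141826006-141826255: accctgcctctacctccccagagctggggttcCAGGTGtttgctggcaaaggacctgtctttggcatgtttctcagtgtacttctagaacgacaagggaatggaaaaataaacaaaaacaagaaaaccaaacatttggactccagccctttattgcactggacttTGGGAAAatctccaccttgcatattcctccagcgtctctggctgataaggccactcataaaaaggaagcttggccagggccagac
Ctrb1, chr8:111691011-111691260: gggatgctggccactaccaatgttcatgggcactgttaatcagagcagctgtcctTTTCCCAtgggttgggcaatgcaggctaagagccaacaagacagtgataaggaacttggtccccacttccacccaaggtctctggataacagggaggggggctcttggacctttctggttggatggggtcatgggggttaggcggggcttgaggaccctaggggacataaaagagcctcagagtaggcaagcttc
Cela3b, chr4:137430521-137430770: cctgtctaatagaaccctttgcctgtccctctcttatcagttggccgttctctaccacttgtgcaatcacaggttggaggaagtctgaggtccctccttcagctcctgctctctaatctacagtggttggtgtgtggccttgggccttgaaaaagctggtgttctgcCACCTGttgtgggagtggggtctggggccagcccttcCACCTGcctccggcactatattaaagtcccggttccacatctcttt
Cela3a, chr4:137409792-137410041: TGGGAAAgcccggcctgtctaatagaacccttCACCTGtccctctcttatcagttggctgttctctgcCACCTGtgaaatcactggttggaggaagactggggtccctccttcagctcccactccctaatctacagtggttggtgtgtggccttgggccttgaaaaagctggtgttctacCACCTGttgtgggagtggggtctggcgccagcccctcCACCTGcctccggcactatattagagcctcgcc
The E-box CACCTG (or CAGGTG) was found 1 time before Cela2a, 2 times before Cela3b, 4 times before Cela3a, 1 time before Cela1 and 2 times before Ctrl. It was found 0 times before Ctrb1. Among all 32851 promoters of the table, 17.2% held it in the same 250 bases. Only exact strings were searched, without other forms of the E-box, and the Ctrb1 window holds another form, CAGCTG, shortly before its TTTCCCA. In Cela2a the marked motifs start 218 and 85 bases before the gene, and spacing was not examined. These counts therefore do not tell which windows hold a PTF1 site. The second motif TTTCCCA (or TGGGAAA) was found 1 time each before Cela2a, Ctrb1 and Cela3a, and 6.82% of all promoters held it. The NR5A2 motif CAAGGTCA (or TGACCTTG), which 1.33% of promoters held, was found 0 times in these windows. No searched motifs overlap in these windows. The Cela3b and Cela3a windows were identical at 219 of 237 aligned bases (92.4%), and the Cela3a probe stayed near background. Its count was at most 2.23 times the negative probes (probes with no target in the genome), and 1 of 57 regions exceeded 2 times.

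All 6 members passed the filter for testing, a count over 2 times the negative probes in at least 3 regions, as did 2688 targets in all. Levels are given as the authors' deposited Q3-normalised counts, in which every region is scaled to the same 75th percentile, and differences come from edgeR's quasi-likelihood test on counts added per time point and array. A member was called lower or higher at a Benjamini-Hochberg adjusted p under 0.05 over all tested targets. Total target counts ran from 1036609 to 5035488 per region. In control regions the 6 members held 9.79% ± 1.24 (SD, n = 7) of all target counts, and at 24 hours 2.90% ± 1.22 (SD, n = 6). Nuclei per region were 585 to 1191 in control and 966 to 1678 at 24 hours. Fewer acinar cells and less RNA per acinar cell cannot be told apart in such regions.

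Within the first 24 hours 5 of the 6 members fell to between 5.79% and 10.8% of their control means. The chymotrypsinogen transcript Ctrb1 was then at 63.3% of its control mean. It was not called at any time by edgeR on counts without background subtraction, with TMM scaling and all sums. At 3, 12 and 24 hours alike, the 5 called lower were Cela1, Cela2a, Cela3b, Ctrc and Ctrl. Of all tested targets 3.98% were called lower at 3 hours, 21.5% at 12 hours and 21.8% at 24 hours. At 48 and 72 hours 3 members were called lower, Cela1, Cela2a and Ctrc, against 0.781% and 0.409% of all targets. At 5 days Ctrc was called, against 0.149%. With 1 sum left out these counts fell to 3 at 3 hours (without its array 1 sum), to 1 at 48 hours (without its array 1 sum or control array 2), to 1 at 72 hours (without its array 1 sum or either control sum) and to 0 at 5 days (without either of its sums or either control sum). At 7, 14 and 30 days edgeR called 0 members, against 0% of all targets, with 1, 1 and 0 members at an unadjusted p under 0.05. Every region of the 5 fallen members was below the lowest control region at each time from 3 hours to 5 days, as was true of 4.02%, 3.46%, 3.68%, 2.79%, 2.42% and 1.23% of tested targets at the 6 times in order. The median log2 difference of the 6 members was -3.66 at 24 hours, beside -0.01 over all tested targets, and -0.07 at 30 days, beside 0.01. Over the 9 time points jointly, 5 of 6 members changed in the joint test, against 42.9% of all targets, and Ctrb1 did not pass it (adjusted p = 0.345, edgeR). Limma on single regions called all 6 in its joint test, for which no share over all targets was computed.

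**Figure D1:**
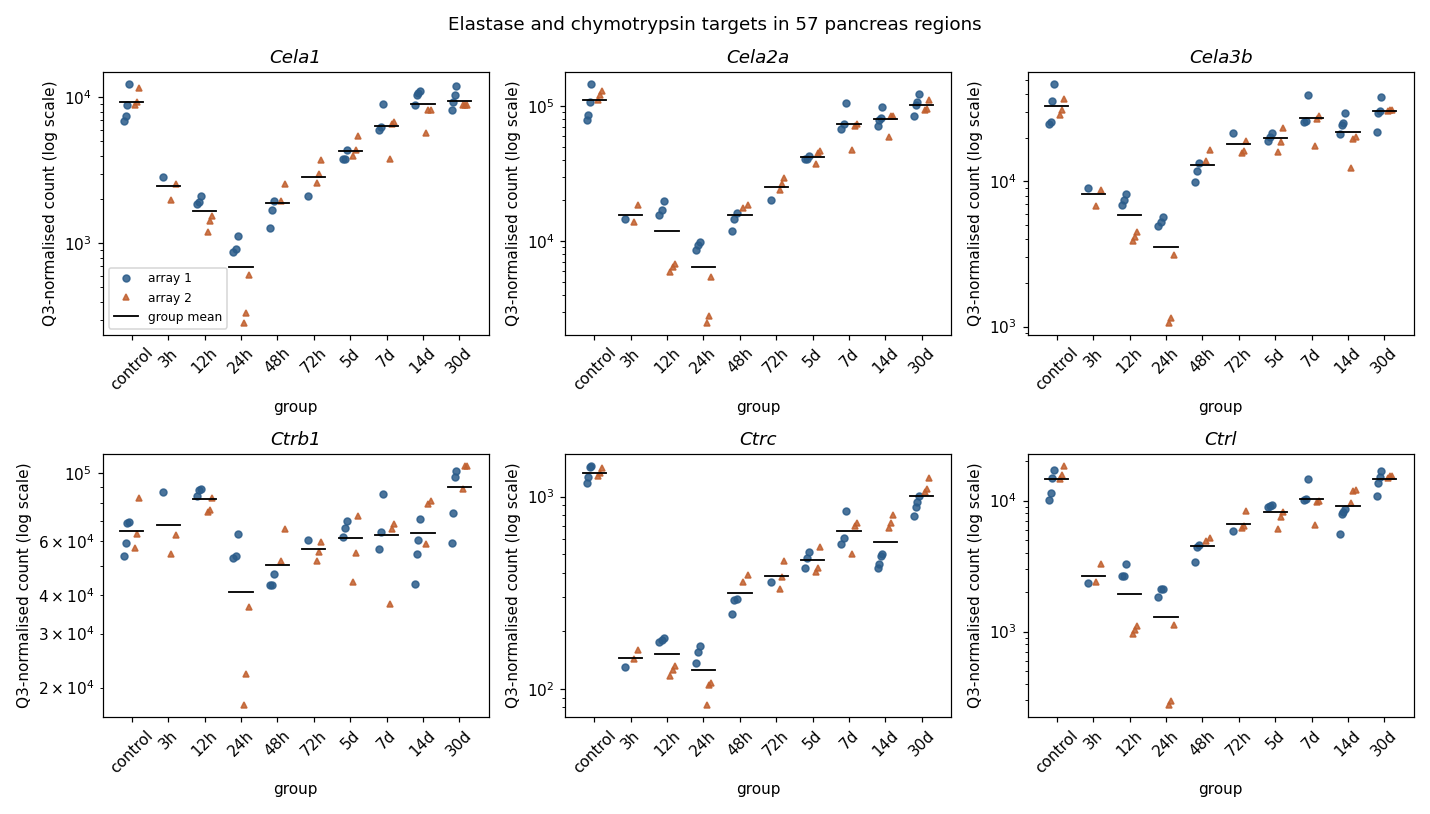
Q3-normalised count of each of the 6 targets in 57 pancreas regions (log axis), by group, with circles for array 1, triangles for array 2 and a black line at the group mean. The 5 targets other than Ctrb1 lie below all control regions from 3 hours to 5 days, and regions of array 2 lie below those of array 1 at 12 and 24 hours.

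Cela2a encodes pancreatic elastase 2A. Its Q3-normalised count in control was 110702 ± 23857 (SD, n = 7), with a lowest region of 78021, a median of 109885 and a highest of 145684. At 3 hours the 3 regions read 13731, 14526 and 18494. No treated region at that time reached the lowest control region. At 12 hours the values ran from 5938 to 19820 with a median of 11210. The 24-hour regions were the lowest of the course, at 2482 to 9896 with a median of 7005. This was 5.79% of the control mean, and the fitted log2 difference was -4.36 ± 0.54 (SE, adjusted p = 2.48e-05, edgeR).

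Cela2a then rose through later groups, with regions of 11825, 14488, 16228, 17475 and 18444 at 48 hours. The 72-hour regions read 20196, 23778, 26299 and 29295. At 5 days the lowest was 37008, the median 41711 and the highest 46630. Ordered by mean, the 48-hour, 72-hour, 5-day and 7-day groups did not overlap with each other, and the other 6 pairs of neighbours in the order did. The means reached 65.9% of control at 7 days, 71.8% at 14 days and 91.9% at 30 days, and Cela2a was not called at those times.

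Cela1, the pancreatic elastase that is also made in other tissues, had 9354 ± 2025 (SD, n = 7) in control, between 6879 and 12397. At 3 hours its regions read 1972, 2565 and 2858. By 24 hours they lay between 286 and 1123 with a median of 740, 7.36% of the control mean. That group did not overlap with any other of the course, and the log2 difference was -3.96 ± 0.43 (SE, adjusted p = 7.20e-06, edgeR). Its mean returned to 45.8%, 68.4%, 96.7% and 101% of control at 5, 7, 14 and 30 days.

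Cela3b, a pancreatic proteinase of the elastase family with little action on elastin, had 32892 ± 7725 (SD, n = 7) in control, from 24968 to 47121. Its 3-hour regions read 6749, 8708 and 8955, and its 24-hour regions ran from 1063 to 5698 with a median of 4026. The log2 difference at 24 hours was -3.47 ± 0.45 (SE, adjusted p = 3.40e-05, edgeR). At 48 hours the 5 regions, 9843, 11816, 13319, 13882 and 16527, lay above every region of the first 24 hours. The mean was then 39.8% of control, the highest share of the 5 fallen members, and its log2 difference of -1.27 ± 0.41 did not pass the test (adjusted p = 0.137, edgeR). The mean was 55.4% of control at 72 hours. At 5, 7, 14 and 30 days it was 60.3%, 83.3%, 66.4% and 93.0%.

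Ctrl encodes a chymotrypsin-like protease made by the exocrine pancreas. In control it had 14627 ± 2936 (SD, n = 7), from 10080 to 18336. Its 3-hour regions read 2343, 2399 and 3271, and its 24-hour regions ran from 275 to 2130 with a median of 1479. The log2 difference at 24 hours was -3.76 ± 0.56 (SE, adjusted p = 1.29e-04, edgeR). Its 48-hour mean was 30.7% of control and did not pass the test (-1.71 ± 0.52, adjusted p = 0.111, edgeR), while every 48-hour region lay below the lowest control. The mean was 69.8% of control at 7 days, 62.2% at 14 days and 99.9% at 30 days.

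Ctrc is the mouse counterpart of human chymotrypsin C, a protease that degrades trypsinogen in humans, and its transcript had the lowest share of its control mean of the 6 at 5, 7, 14 and 30 days. It had 1330 ± 98.7 (SD, n = 7) in control, from 1177 to 1442, the narrowest relative spread of the control groups here. The 3-hour regions read 130, 143 and 160, and 24-hour regions ran from 82.4 to 167 with a median of 122. At 3 to 24 hours its counts were 1.24 to 2.46 times the negative probes, so that its early differences are limited by background. The log2 difference at 24 hours was -3.56 ± 0.29 (SE, adjusted p = 9.49e-07, edgeR), and -5.27 once the negative-probe value was subtracted.

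At 5 days the Ctrc regions lay between 406 and 547, and the log2 difference was -1.53 ± 0.26 (SE, adjusted p = 0.00741, edgeR). At 7 days they lay between 506 and 837, and at 14 days between 426 and 801. Each of those regions was below the lowest control region, as was the case for 0.67% of tested targets at 7 days and 0.446% at 14 days. The log2 differences of -1.02 ± 0.26 and -1.13 ± 0.26 had unadjusted p-values of 0.00106 and 4.13e-04 and were not called over all targets by edgeR (adjusted p = 0.259 and 0.159), and DESeq2 and limma on single regions each called Ctrc at both times. At 7 days DESeq2 called 1.72% of targets lower, 5 of the 291 to which it gave an adjusted p, and limma called 0.409% of 2688. At 14 days the shares of 2688 were 0.112% and 0.149%. At 30 days 6 of 7 regions were still below the lowest control, at 790 to 1245 and 75.3% of the control mean, with no call by any of the 3 tools.

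Ctrb1 encodes chymotrypsinogen B, the main chymotrypsinogen of the mouse pancreas, which in mice degrades trypsinogen. Its Q3-normalised count in control was 64916 ± 9868 (SD, n = 7), with a lowest region of 53643, a median of 63474 and a highest of 82917. At 3 hours the regions read 54447, 62962 and 86716, all above the lowest control and 1 above the highest. At 12 hours they ran from 74855 to 88868 with a median of 83804, and the mean was 127% of control. At 24 hours they ran from 17547 to 63310 with a median of 44794, and 4 of 6 were below the lowest control.

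Ctrb1 differed from control by 0.04 ± 0.40 at 3 hours, 0.19 ± 0.40 at 12 hours and -0.82 ± 0.40 at 24 hours on the log2 scale (SE, adjusted p = 0.971, 0.719 and 0.110, edgeR). Plus or minus 2 SE, its level was 59.2% to 179% of control at 3 hours and 32.3% to 98.9% at 24 hours. Limma on single regions called it lower at 24 hours, as it did 10.6% of all targets, and so did edgeR with background subtracted (-1.33) and edgeR without the 24-hour sum of array 1 (-1.53). From 48 hours to 14 days its means were 77.4% to 98.7% of control, and at 30 days 139%, with regions from 59394 to 105550. In the order of its group means all 9 pairs of neighbours overlapped.

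**Figure D2:**
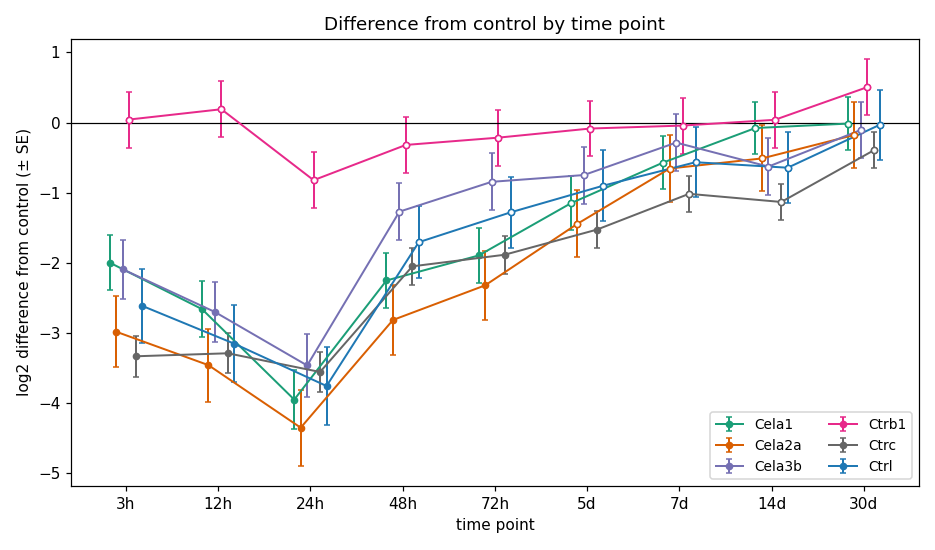
Log2 difference from control of each of the 6 targets at 9 time points (edgeR, points with bars of 1 SE), with filled points where the adjusted p was under 0.05. Ctrb1 has no filled point, the other 5 are lowest at 24 hours, and Ctrc at 5 days is the last filled point.

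Arrays differed within several groups. The share of all tested targets with the 2 arrays wholly apart was not computed, so the counts of members that follow are description. At 12 and 24 hours, with 3 regions per array, every region of array 2 was below every region of array 1 for all 6 members. In control the 2 arrays overlapped for all 6. Ctrl at 24 hours read 1831 to 2130 on array 1 and 275 to 1127 on array 2, and its log2 difference from the control of the same array was -2.89 and -5.09. Ctrb1 at 24 hours read 52940 to 63310 on array 1 and 17547 to 36647 on array 2, with log2 differences of -0.28 and -1.56. At 48 hours the arrays were closer, with log2 differences for Ctrl of -1.67 and -1.74 and for Cela3b of -1.49 and -1.11. In Q3-normalised counts array 2 (2 regions) was then wholly above array 1 (3 regions) for 5 of 6 members, all but Cela1. At 14 days array 2 was wholly above array 1 for Ctrc (684 to 801 against 426 to 502) and Ctrl, and wholly below it for Cela1 and Cela3b.

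**Figure D3:**
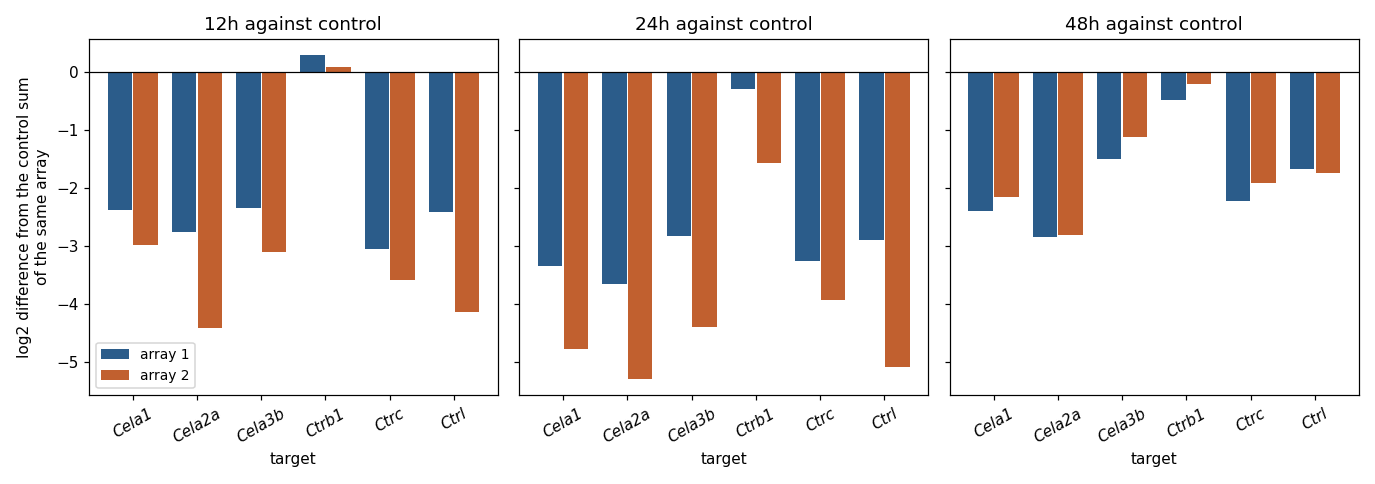
Log2 difference of each target from the control sum of the same array at 12, 24 and 48 hours, as bars for array 1 and array 2. At 24 hours array 2 is lower for all 6 targets, at 12 hours for all 6, and at 48 hours the arrays lie closer together.

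Between 24 and 48 hours the members rose again. The rise was called higher for 5 of 6 members, against 8.33% of all targets, with log2 rises of 2.20 ± 0.43 for Cela3b, 2.05 ± 0.53 for Ctrl, 1.70 ± 0.39 for Cela1, 1.54 ± 0.48 for Cela2a and 1.51 ± 0.27 for Ctrc (SE). Ctrb1 was not called (0.50 ± 0.40, adjusted p = 0.387, edgeR). The rise depended on the low 24-hour sum of array 2: without it 0 members were called. The member-wise log2 rise was 0.81 to 1.33 on array 1 and 2.03 to 3.35 on array 2 for the 5 called.

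The balance between members shifted with the course. The ratio of Ctrb1 to Cela2a counts, set to 1 at the control mean (range 0.795 to 1.16), was 7.42 ± 2.25 (SD) over the 3-hour regions and 14.4 ± 6.74 at 12 hours. The 12-hour regions split by array, with 7.49 to 9.00 on array 1 and 18.6 to 21.5 on array 2. At 24 hours its mean was 11.2, with 9.69 to 10.7 on array 1 and 11.3 to 13.4 on array 2, so that 12 hours was above 24 hours on array 2 and below it on array 1. The means then fell to 5.37 ± 0.617 at 48 hours, 3.89 ± 0.783 at 72 hours, 2.44 ± 0.342 at 5 days and 1.44 ± 0.0968 at 7 days. Every region from 3 hours to 7 days was above the highest control region. At 14 days 5 of 7 regions were above it, and at 30 days 7 of 7, with a mean of 1.49 ± 0.282.

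The ratio of Cela3b to Cela2a followed another course. Its mean was 1.77 ± 0.264 (SD) at 3 hours, 1.82 ± 0.445 at 12 hours and 1.75 ± 0.262 at 24 hours. The control range was 0.874 to 1.12. At 48 and 72 hours the means were 2.79 ± 0.129 and 2.53 ± 0.722. Between those times the ratio rose from 2.76 to 3.60 (1 region) on array 1 and fell from 2.84 to 2.17 on array 2. The 12-hour means were 1.44 on array 1 and 2.21 on array 2. At 30 days the ratio was 1.01 ± 0.0879 (n = 7), inside the control range in every region. In these ratios depth and scaling cancel, since both counts come from one region.

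**Figure D4:**
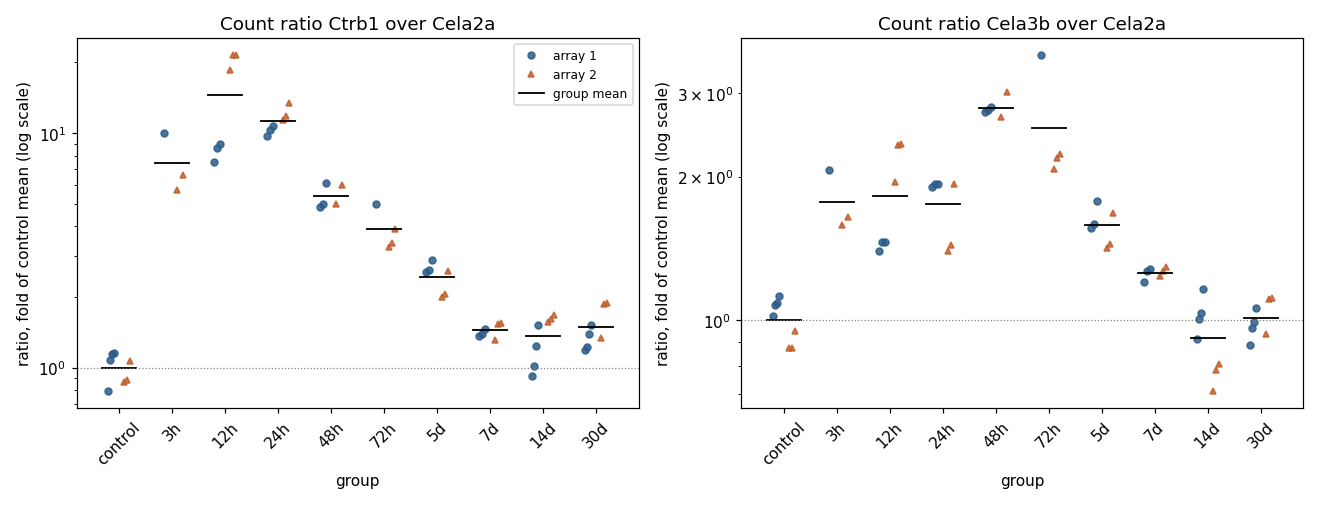
Ratio of Ctrb1 to Cela2a counts (left) and of Cela3b to Cela2a counts (right) in each region, as fold of the control mean on a log axis, with circles for array 1, triangles for array 2 and a line at the group mean. The left ratio has its highest mean at 12 hours, which array 2 sets, and the right one has its highest mean at 48 hours and its highest region at 72 hours.

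Tested relative to the geometric mean of the 6 members, 2 of 6 changed over the course, Ctrb1 and Cela2a (adjusted p = 2.41e-57 and 3.79e-07, edgeR joint test), against 99.6% of all targets. That background arises because the reference itself fell, so the counts say nothing about the members beyond their sizes. Ctrb1 was higher than this mean by 2.23 ± 0.25 at 3 hours, 2.79 ± 0.26 at 12 hours, 2.52 ± 0.25 at 24 hours and 1.41 ± 0.24 at 48 hours on the log2 scale (SE). Cela2a was lower than it by log2 differences of -0.82 ± 0.28 at 3 hours and -1.03 ± 0.29 at 24 hours. The 6 differences add up to about 0 by construction, so the high values of Ctrb1 lower those of the others. Relative to 10 other digestive enzymes, Cela2a differed by -0.41 ± 0.29 at 3 hours and -1.12 ± 0.29 at 24 hours (SE). Ctrb1 differed from them by 2.65 ± 0.25 and 2.43 ± 0.25. In the fit relative to the members' mean all targets shared 1 spread, which makes the p-values of tightly paired members hard to read. With each target's own spread, Cela1, Cela3b and Ctrc changed too, 5 of 6 in all, against 99.9% of targets (adjusted p = 3.43e-04 for Ctrb1 and 4.76e-04 for Cela2a, limma linear model), an alternative chosen after the data were seen.

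Across the 20 sums of time point and array, the log2 scaled counts of the 5 fallen members were correlated pair by pair at r = 0.89 to 0.98, while Ctrb1 had r = 0.46 to 0.66 with them. These are descriptions over sums that share the scaling and the common fall. Among the targets most like the mean of the 6 were Pnlip (r = 0.99), 2210010C04Rik (0.99), Zg16 (0.98), Cel (0.98), Pla2g1b (0.97), Tff2 (0.97), Cpb1 (0.95), Tmed6 (0.95) and Try4 (0.94). Pnlip, which encodes pancreatic lipase, was nearest to Cela1 (0.98) and Cela2a (0.99). Cel, the bile-salt-activated lipase, was nearest to Cela3b (0.98) and Ctrl (0.99), and Zg16, a zymogen granule protein, was nearest to Ctrc (0.96). For Ctrb1 the nearest were Cpa1 (0.74), Fer1l6 (0.71) and Camk1d (0.71).

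The other digestive enzymes moved in the same direction for the most part. Of 28 listed, 17 were on the table and 16 were tested, and 14 were called lower and 1 higher at 24 hours (20.8% of all targets were called higher), with a median log2 difference of -2.61. Pnlip fell by 5.57 and Clps, its colipase, by 3.43 on the log2 scale. Cpa1, a carboxypeptidase, fell by 1.73 ± 0.32 (SE), and the trypsinogen-like gene 1810009J06Rik was the 1 called higher. From 24 to 48 hours 10 of the 16 rose and 0 fell. Among 10 tested granule and secretory proteins 7 were called lower at 24 hours, including Zg16 (-4.19), Tff2 (-3.77) and Sycn (-3.32), while the granule membrane proteins Vamp2 (-0.01) and Vamp8 (0.38) were not called.

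Inhibitors and lysosomal proteases split by direction. Of 6 tested, Serpini2, a pancreatic serpin, and Spink1, the trypsin inhibitor of the granule, fell by 1.79 ± 0.28 and 1.23 ± 0.31 on the log2 scale at 24 hours. The cathepsins Ctsd, Ctsb and Ctsl rose at that time by 2.18 ± 0.29, 1.63 ± 0.20 and 1.56 ± 0.22, cathepsin B being known to activate trypsinogen. Serpina3n was not called (0.06 ± 0.10). Of the acinar transcription factors 4 were tested, Xbp1, Bhlha15, Nr5a2 and Rbpjl, and their log2 differences at 24 hours lay between -0.38 and 0.32 (adjusted p = 0.191 to 0.554, edgeR). At 12 hours the log2 differences were 0.95 ± 0.21 for Xbp1, 0.47 ± 0.17 for Nr5a2 and -0.74 ± 0.23 for Bhlha15 (SE). The median of the 4 was then 0.13, beside -0.02 over all tested targets. Besides Cela3a, 6 further elastase-like or chymotrypsin-like proteases on the table (Elane, Prtn3, Mcpt1, Mcpt2, Mcpt4 and Mmp12) stayed under 2 times the negative probes in all 57 regions and were not tested.

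Markers of some other cell types rose where the members fell. At 24 hours 6 of 8 tested ductal markers were called higher and 0 lower, 8 of 9 fibroblast markers were higher and 7 of 11 macrophage markers were higher. Of all tested targets 20.8% were called higher and 21.8% lower at that time. The summed Q3-normalised count of 10 ductal markers was 1337 to 1523 in control and 7621 to 15366 at 24 hours, and that of 11 fibroblast markers was 1212 to 1361 and 3738 to 8547. The 12 macrophage markers summed to 1262 to 1358 in control and 1874 to 3744 at 24 hours. Of 3 tested neutrophil markers 2 were called lower and 0 higher at 24 hours, and of 2 tested adipocyte markers 1 was called lower. The 4 tested islet markers had a median log2 difference of 2.29 at 12 hours, beside -0.02 over all tested targets. At 24 hours their median was -0.05, and they were not called. The summed count of 8 islet markers ran from 790 to 38260 at 12 hours, with a median of 1381, against 769 to 1556 in control. Lymphocyte markers did not pass the filter. Of these lists 0 markers were listed at 0 in any region of those groups. By array at 24 hours, fibroblast markers summed to 3738 to 4338 on array 1 and 5254 to 8547 on array 2, where the members were lower. Of the 12 acinar markers, which share no gene with the 6, the sum was 97422 to 147165 in control and 3879 to 18690 at 24 hours. Their part in the members' fall was not tested.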

How the data were processed

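RNA was measured in 57 regions of mouse pancreas, 7 control and 50 treated, as the labels group them. Deduplicated probe counts were made from reads by the GeoMx NGS Pipeline (2.3.3.10, per the file headers). The authors deposited expected counts per target, a Q3-normalised signal in which each region was multiplied by 1 factor, and a region summary with counts of nuclei and reads, sequencing saturation in percent and that factor as a ratio. The submitters' processing notes name limma and mm10, without their roles. Positions of probes are on GRCm38.p6, per the file headers.

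Counts were rounded and added per time point and array into 20 sums, given TMM factors and modelled in edgeR 4.0.16 under R 4.3.3 (group and array terms, 9 residual degrees of freedom). Tests covered 2688 targets that exceeded 2 times the negative probes in 3 or more regions. DESeq2 1.42.0, limma 3.58.1 on single regions, other scalings, background subtraction and filters were alternatives. The array term is the shared block, since per the labels each array holds every time point. Named genes were the 6 members, members of the fixed lists, and the targets most correlated with each member (3) or with their mean (10, of which 1 is not reported here). The members and lists were chosen with earlier results of these data known. Total target counts of 1036609 to 5035488 per region make counting error small for 5 of the members, and Ctrc lay near background at 3 to 24 hours.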

Additional observations from a re-analysis of the deposited data

Results flagged for a closer look

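Of 54 sets of regions (each member in each group of 4 to 10 regions) 1 held a region far from the others, where chance alone marks about 1 set in 20. Cela1 at 5 days read a Q3-normalised count of 5483 in 1 region of array 2, against 4356 in the next highest, a gap of 0.654 of the range of the 6 regions.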

How the results depend on the processing

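The same limits apply to all members: a group holds 2 sums, and regions are not tied to animals. Over the 9 alternatives that kept all sums, the members called lower numbered 5 at 3 hours, 5 at 12, 5 to 6 at 24 and 3 at 72. With the array term left out (no replicate block) the counts were 5, 5, 5, 3, 3 and 1 from 3 hours to 5 days, and 4 members rose from 24 to 48 hours. At 48 hours total target count scaling, DESeq2 and limma on single regions called 5. At 5 days background subtraction called 0 and limma 3. DESeq2 and limma each called 1 at 7 and at 14 days. Between 12 and 24 hours DESeq2 called 1 and limma 2, and between 5 and 30 days 1 and 3. Relative to the members' mean, 5 changed with each target's own spread, against 2. The share of all targets called also differed between tools, as at 24 hours, when edgeR called 21.8% lower and limma on single regions 10.6%. Those shares are not given for each count here, so the counts show only how the calls depend on the processing. The causes of these differences were not tested.

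Leaving out 1 sum in turn gave 3 to 5 calls at 3 hours, 5 at 12 hours, 5 to 6 at 24 hours, 1 to 3 at 48 and at 72 hours, 0 at 5 days, 0 to 3 between 12 and 24 hours and 0 to 6 between 24 and 48 hours. The joint test stayed at 5 with each sum left out (limma gave 6) and the relative one at 2. The sums whose absence moved a count of calls were array 1 at 24 hours (6 at 24 hours and 6 for 24 to 48 hours, Ctrb1 included), array 1 at 3 hours (3), control array 2 or array 1 at 48 hours (1), control array 1, control array 2 or array 1 at 72 hours (1), any of the 4 at 5 days (0), array 1 at 24 hours for 12 to 24 hours (3), and for 24 to 48 hours array 2 at 24 hours (0) and arrays 1 and 2 at 48 hours (3 and 2).

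Signs turned for values near 0 that were not called. For Ctrb1 background subtraction gave log2 differences of -0.32 at 3 hours, -0.33 at 12 hours and -0.0013 at 14 days, limma -0.0248 at 14 days, and total count scaling 0.13, 0.21, 0.20 and 0.21 at 48 hours, 72 hours, 5 days and 7 days. Total count scaling gave 0.0725 for Cela1 at 14 days, and at 30 days 0.0888 for Cela1, 0.0004 for Cela3b and 0.0819 for Ctrl. Negative-probe scaling and limma gave 0.0202 and 0.0219 for Cela1 and 0.0080 and 0.0064 for Ctrl at 30 days. Leaving out 1 sum spanned -0.15 to 0.21 for Ctrb1 at 3 hours, -0.18 to 0.0188 at 5 days, -0.15 to 0.0596 at 7 days and -0.25 to 0.29 at 14 days. It spanned -0.27 to 0.10 for Cela1 at 14 days, and at 30 days -0.16 to 0.14 for Cela1, -0.39 to 0.0597 for Cela2a, -0.36 to 0.11 for Cela3b and -0.27 to 0.25 for Ctrl. Total count scaling moved the median of all targets by 0.60 at 24 hours and negative-probe scaling by 0.45.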
